A study of Mus musculus with 14 samples.

Results

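The liver RNA of mice that drank sugar water while eating a high-fat Western diet (HFWD+sugar, 5 livers) was compared with that of mice that ate the same diet without the sugar (HFWD, 5 livers). All mice were C57BL/6N and started their diet at 7 weeks of age. The HFWD drew 40% of its energy from fat, and the sugar water held 42 g/L of sugar, 55% of it fructose and 45% sucrose. The third group of the study, 4 livers of mice on standard chow with about 12% of energy from fat, is given for context. The fat of the diets came from lard, butterfat and Crisco, at 30% each. The labels used here are silent on sex and on how long the diets lasted, and do not state outright that each library came from a separate animal, so the p-values measure the spread between these libraries. The compared features are all gene rows of the deposited expression table above its floor of 1 in at least 4 of the 14 livers, which were 14770 of 22850 rows. A row's value is its normalized signal on a linear scale, given below in units. The scaling behind it is not stated in the labels, and 1 is the lowest value a row takes.

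Fructose is taken up and phosphorylated in the liver by ketohexokinase and then split, which brings it into glycolysis below the main control point of glucose breakdown. The carbons can then feed fatty acid synthesis, whose enzymes are under the control of the transcription factors ChREBP, which responds to sugar metabolites, and SREBP-1c, which responds to insulin. Fatty acids from this route and from the diet are stored as triglyceride in lipid droplets, burned in mitochondria and peroxisomes under PPARα, or exported in lipoproteins. The comparison bears on the study's question of what sugar in the drinking water contributes beyond the fat-rich diet.

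No row differed between HFWD+sugar and HFWD livers at an adjusted p under 0.05, which is 0% of the rows tested. The test was limma's moderated test on log2(value + 1) with Benjamini-Hochberg adjustment over all rows, and its smallest adjusted p was 0.46, shared by 33 rows. At an unadjusted p under 0.05 there were 1273 rows (8.62%, where 5% of the rows would be 738.5), of which 804 were higher in HFWD+sugar livers (5.44%) and 469 lower (3.18%). Without HFWD+sugar 4 these counts were 465 higher and 288 lower. The 5 HFWD+sugar values all lay above the 5 HFWD values in 139 rows (0.941%) and all below them in 186 rows (1.26%). In the same fit, 1336 rows (9.05%) passed the adjusted threshold between HFWD+sugar and chow livers and 499 rows (3.38%) between HFWD and chow livers; both comparisons share their chow livers, and the difference between the counts was not tested. Scaling moved the split: with median centring, which shifted the median log2 difference of all rows to -0.10 from 0.05, there were 387 higher and 1500 lower rows, and with quantile normalization 526 higher and 484 lower. Below, rows are therefore described by their values, and those that reach an unadjusted p under 0.05 are said to be "past the unadjusted threshold", which is not a call. List members named beyond the one with the smallest p and beyond a fixed panel were picked after their values were seen. List counts below stand against 5.44% of all rows on the higher side and 3.18% on the lower. A count near these shares is not a result about the list.

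The 95% intervals show how precisely each difference was estimated, with a spread shared by all 14 libraries, chow included. They are not adjusted over the rows tested, so an interval that excludes 0 is not a call. Nor do they give the size of difference that could go uncalled. In the limma fit of the 10 Western-diet livers alone, the smallest adjusted p was 0.11 and 0 rows were called. The median standard error of a log2 difference was 0.30. For 8370 rows (56.7%) the 95% interval of the difference lay inside a 2-fold change in either direction, and for 4938 rows (33.4%) inside a 1.5-fold change. The share inside 2-fold was 12.5% of the 5194 rows with a mean under 20 units and 97.8% of the 2849 rows at 1000 units or more. Estimates past 2-fold were held by 387 rows on the higher side and 79 on the lower side.

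The sign of the difference went with the level of the row. Over all rows, the log2 difference had a median of 0.05. It was 0.21 for rows under 20 units, 0.19 for rows of 20 to 100 units, 0.02 for rows of 100 to 1000 units and -0.07 for rows at 1000 units or more. Among the rows under 20 units, 6.49% were past the unadjusted threshold on the higher side and 0.886% on the lower side, while at 1000 units or more 1.26% were on the higher side and 9.48% on the lower side.

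**Figure D1:**
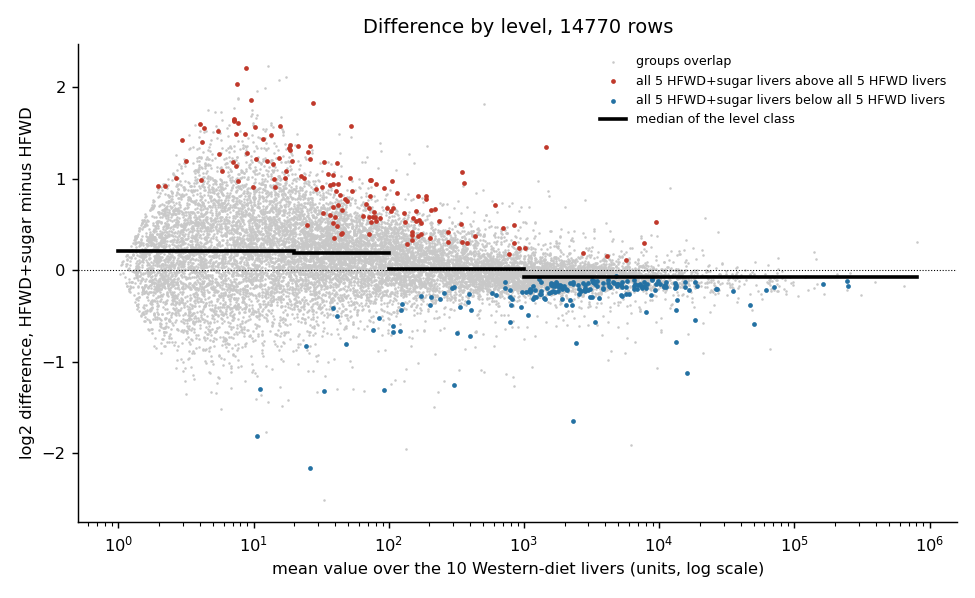
Log2 difference (HFWD+sugar minus HFWD) of each of the 14770 tested rows against its mean value over the 10 Western-diet livers in units on a log axis, with rows whose groups do not overlap in colour. Black lines give the median of 4 level classes, from 0.21 in the lowest class to -0.07 in the highest, and the spread narrows as the level rises.

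Of 5 library measures, 2 differed between the groups at an unadjusted p under 0.05 in an exact permutation test. Neither passed adjustment, and both draw on the low or high rows that make up this tilt. The HFWD+sugar libraries had 14040 ± 261 rows above the floor and the HFWD libraries 13590 ± 215 (mean ± SD, n = 5 each; exact permutation test, 2-sided, p = 0.0238, adjusted over 5 library measures 0.0794, where the smallest p the design allows is 0.00794). Estimated depth, from the spacing of low values, came to 7.19 to 9.30 M reads in the HFWD+sugar libraries and 5.83 to 9.34 M in the HFWD libraries, with HFWD 1 the shallowest. The table total averaged 22.54 M units in HFWD+sugar and 23.9 M in HFWD libraries (exact permutation test, 2-sided, p = 0.0635, adjusted 0.106). It was lower in HFWD+sugar, as was the median of rows at 1000 units or more, at -0.07 log2. The total sums these same rows, and its part in their difference was not tested. In many places of the table an abundant liver gene has a low row of its own and a far higher row within 200 kb on the opposite strand, called the opposite-strand row below. Where several rows lie in that window the highest was taken, which need not be the nearest, and "beside" below means within the window. The row of albumin (Alb) averaged 3430 units in HFWD+sugar and 2913 units in HFWD livers, and the row of Rassf6 on the other strand averaged 611330 units in HFWD+sugar and 691440 units in HFWD livers. Over 2744 such pairs, the own row held a median 1.32% ± 0.18 of its opposite row's value in HFWD+sugar livers and 1.10% ± 0.09 in HFWD livers (mean ± SD, n = 5 each; exact permutation test, p = 0.0318, adjusted 0.0794). This share was highest in HFWD+sugar 4, at 1.58%, which also had the most rows above the floor, 14459. The own rows of the pairs had a median log2 difference of 0.15, with 196 past the unadjusted threshold on the higher side and 46 on the lower. The 1455 tested opposite rows had a median of -0.08, with 9 on the higher and 154 on the lower side. HFWD+sugar 4 held the highest value of its group in 45.8% of the 804 rows past the unadjusted threshold on the higher side, and in 25.6% of all rows with a single highest liver. Whether these library measures have a part in the differences below was not tested beyond the fit with this share as a covariate, called the share-adjusted fit. That fit gave 243 rows past the unadjusted threshold on the higher side and 298 on the lower, with 0 called, and its values are given beside the lists. The share was computed from these same rows and differed between the groups, so the fit can also take out differences that go with diet. For a row that drops out there, share and diet cannot be told apart.

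**Figure D2:**
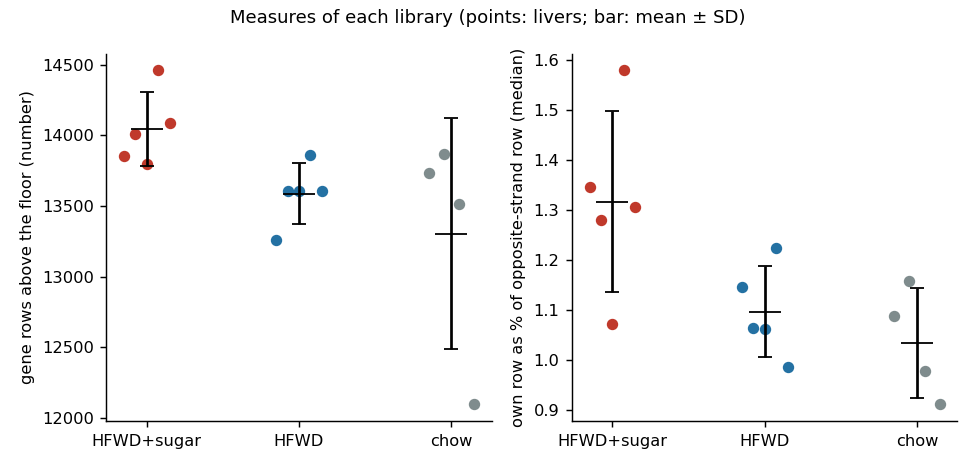
Number of gene rows above the floor (left) and the median percent that an own row holds of its far higher opposite-strand row (right) in each library, with the mean and SD of each diet group; neither axis starts at 0. HFWD+sugar 4 is the highest library on both measures, and chow 4, the shallowest library, is the lowest.

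Rows of fructose handling averaged somewhat more in HFWD+sugar livers without passing the test. Of 12 tested rows on a list of fructose uptake and breakdown, 0 were called, 4 were past the unadjusted threshold on the higher side and 0 on the lower, and the median log2 difference was 0.26, against 0.05 over all rows. Ketohexokinase (Khk, mm9 chromosome 5, 31223929 to 31233619, plus strand), which phosphorylates fructose, had 532, 744, 380.4, 687 and 766 units in HFWD+sugar livers 1 to 5, against 486, 416, 721, 528 and 465 units in HFWD livers 1 to 5. The groups overlapped across most of their range, and the difference was 0.23 ± 0.25 log2 (SE; 95% interval -0.30 to 0.76; adjusted p = 0.80).

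Glycerol-3-phosphate dehydrogenase (Gpd1), which turns triose phosphate into the backbone of triglyceride, had 214, 366, 149, 337 and 192 units in the HFWD+sugar livers, against 133, 163, 149, 217 and 112 units in the HFWD livers. HFWD+sugar 2 and 4 stood above every HFWD liver, and the other HFWD+sugar livers lay among them (log2 difference 0.65 ± 0.24, adjusted p = 0.55). The fructose transporter Slc2a5 averaged 8.44 ± 4.82 units in HFWD+sugar and 2.22 ± 1.82 units in HFWD livers, which is a handful of reads, and Aldh2, an aldehyde dehydrogenase, 780.3 ± 176 and 573 ± 117 units. The list's median in the share-adjusted fit was -0.01, 0 of its rows were past the unadjusted threshold and the Khk difference was -0.06. Without HFWD+sugar 4, the count of 4 was 2. The opposite-strand row beside Khk, Cgref1, picked after its values were seen, did not share the sign and averaged 27875 ± 3039.5 units in HFWD+sugar and 28732 ± 3496 units in HFWD livers (log2 difference -0.04 ± 0.13). The 9 higher opposite rows of the whole list had a median of -0.04, with 1 past the unadjusted threshold on the higher side and 0 on the lower.

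Glucose breakdown and the sugar-responsive programme gave no called row either. Of 22 glycolysis rows, 0 were past the unadjusted threshold on the higher and 1 on the lower side, with a median of 0.05. That row was Pfkfb2, an enzyme that sets the level of fructose 2,6-bisphosphate, at 2280.4 ± 636 units in HFWD+sugar and 3034 ± 836 units in HFWD livers. Liver pyruvate kinase (Pklr), a known ChREBP target, averaged 178 ± 37.1 units in HFWD+sugar and 163 ± 58.9 units in HFWD livers (95% interval of the log2 difference -0.40 to 0.74). Of 14 rows for ChREBP and its known targets, 1 was past the unadjusted threshold, on the higher side (Gpd1), and the median was -0.08. The row of ChREBP itself (Mlxipl) averaged 60.3 ± 17.2 units in HFWD+sugar and 56.9 ± 11.2 units in HFWD livers, and its interval of -0.46 to 0.57 lies inside 2-fold either way. Txnip, another target, averaged 418 ± 131 units in HFWD+sugar and 265 ± 61.7 units in HFWD livers, with a wide interval of -0.77 to 2.01. With that adjustment 0 rows of the glycolysis list and 0 of the ChREBP list were past the unadjusted threshold, with medians of -0.06 and -0.11, and the Pklr difference was -0.08. The hormone Fgf21 stayed near the floor, at 1.85 ± 1.03 units in HFWD+sugar and 2.44 ± 2.21 units in HFWD livers.

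The rows of fatty acid synthesis held the most members past the unadjusted threshold for their number among the metabolic lists of more than 10 tested rows, all on the higher side, and none was called. Of 18 tested rows, 8 were past it on the higher side and 0 on the lower, 3 had groups that did not overlap, and the median log2 difference was 0.26. Over all rows, 5.44% were past it on the higher side and 3.18% on the lower. In 0.941% of all rows the HFWD+sugar values all lay above the HFWD values. Stearoyl-CoA desaturase 1 (Scd1, mm9 chromosome 19, 44468941 to 44482199, minus strand), which makes monounsaturated fatty acids, had 10940, 11270, 9928, 13290 and 10380 units in HFWD+sugar livers 1 to 5, against 9234, 8611, 7292, 7527 and 6227 units in HFWD livers 1 to 5. The lowest HFWD+sugar liver lay above the highest HFWD liver. The difference was 0.53 ± 0.12 log2 (SE; 95% interval 0.27 to 0.78; adjusted p = 0.46), and the chow livers had 4582, 6445, 5189 and 4429 units, below the HFWD livers but for chow 2.

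Scd1 has a related neighbour, Scd2, on the opposite strand, and the 2 rows are also among the 2744 pairs described above. The sources used here do not name the counting method, and whether reads were split between the 2 rows was not tested. The Scd2 row (mm9 chromosome 19, 44368166 to 44381354, plus strand) averaged 86.8 times the Scd1 row over all livers. It had 870900, 905100, 1016000, 852000 and 843800 units in the HFWD+sugar livers, against 836600, 874400, 679000, 608000 and 658300 units in the HFWD livers. HFWD 2 lay inside the HFWD+sugar range and the other HFWD livers below it (log2 difference 0.31 ± 0.15, 95% interval -0.00 to 0.61, adjusted p = 0.58). Chow livers averaged 467990 units in that row.

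Fatty acid synthase (Fasn, mm9 chromosome 11, 120667254 to 120685492, minus strand), which builds palmitate, had 75.1, 211, 179.8, 123 and 189 units in the HFWD+sugar livers, against 78.8, 54.3, 67.8, 102 and 47.4 units in the HFWD livers. HFWD+sugar 1 lay among the HFWD livers and the other HFWD+sugar livers above all of them (log2 difference 1.10 ± 0.30, 95% interval 0.46 to 1.74, adjusted p = 0.50). Elovl5, an elongase of polyunsaturated fatty acids (mm9 chromosome 9, 77765171 to 77832326, plus strand), had 431, 613, 322, 616 and 399 units in the HFWD+sugar livers, against 278, 275, 170, 246 and 156 units in the HFWD livers. All 5 HFWD+sugar livers were above all 5 HFWD livers (log2 difference 1.08 ± 0.24, 95% interval 0.57 to 1.58, adjusted p = 0.46).

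ATP citrate lyase (Acly), the source of cytosolic acetyl-CoA, averaged 136 ± 37.8 units in HFWD+sugar and 86.3 ± 16.8 units in HFWD livers, and 173 units in chow livers, above both. Acetyl-CoA carboxylase 2 (Acacb), whose product malonyl-CoA restrains mitochondrial fatty acid entry, had 43.5, 25.3, 43.6, 27.2 and 50.3 units in the HFWD+sugar livers, against 8.31, 21.1, 8.99, 18.8 and 15.8 units in the HFWD livers, with no overlap between the groups. Its cytosolic relative acetyl-CoA carboxylase 1 (Acaca), which commits carbon to synthesis, averaged 1103 ± 105 units in HFWD+sugar and 1079 ± 101 units in HFWD livers, and its interval of -0.19 to 0.25 log2 excludes a change of 1.5-fold. The other members past the unadjusted threshold were the malic enzyme Me1 at 91.1 units in HFWD+sugar and 58.8 units in HFWD livers, the elongase Elovl6 at 774 and 572 units, and the desaturase Fads1 at 209 and 145 units. Srebf1, the gene of SREBP-1, averaged 70.4 ± 19.4 units in HFWD+sugar and 63.0 ± 22.6 units in HFWD livers (interval -0.49 to 0.85), and the lipase Pnpla3 12.3 ± 2.79 and 14.5 ± 2.91 units.

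The count of 8 was the same without HFWD+sugar 4 and under quantile normalization, 6 under median centring and 4 in the share-adjusted fit, where the list's median was 0.26, the Scd1 difference was 0.30 and the Fasn difference 1.27. The opposite-strand rows taken for Fasn and Elovl5, picked after their values were seen, were level between the groups within their spread. For Fasn this was Npb (mm9 chromosome 11, 120469791 to 120470407, plus strand). Npb averaged 27323 ± 2427 units in HFWD+sugar and 28046 ± 1623 units in HFWD livers (interval -0.24 to 0.16). Fbxo9, 97 kb from Elovl5, averaged 2072 ± 227 units in HFWD+sugar and 2111 ± 225 units in HFWD livers (interval -0.24 to 0.19). Both lie well away from the gene, and whether they bear on Fasn or Elovl5 was not tested. The 14 higher opposite rows of the whole list had a median of -0.06, with 0 past the unadjusted threshold on the higher side and 1 on the lower.

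**Figure D3:**
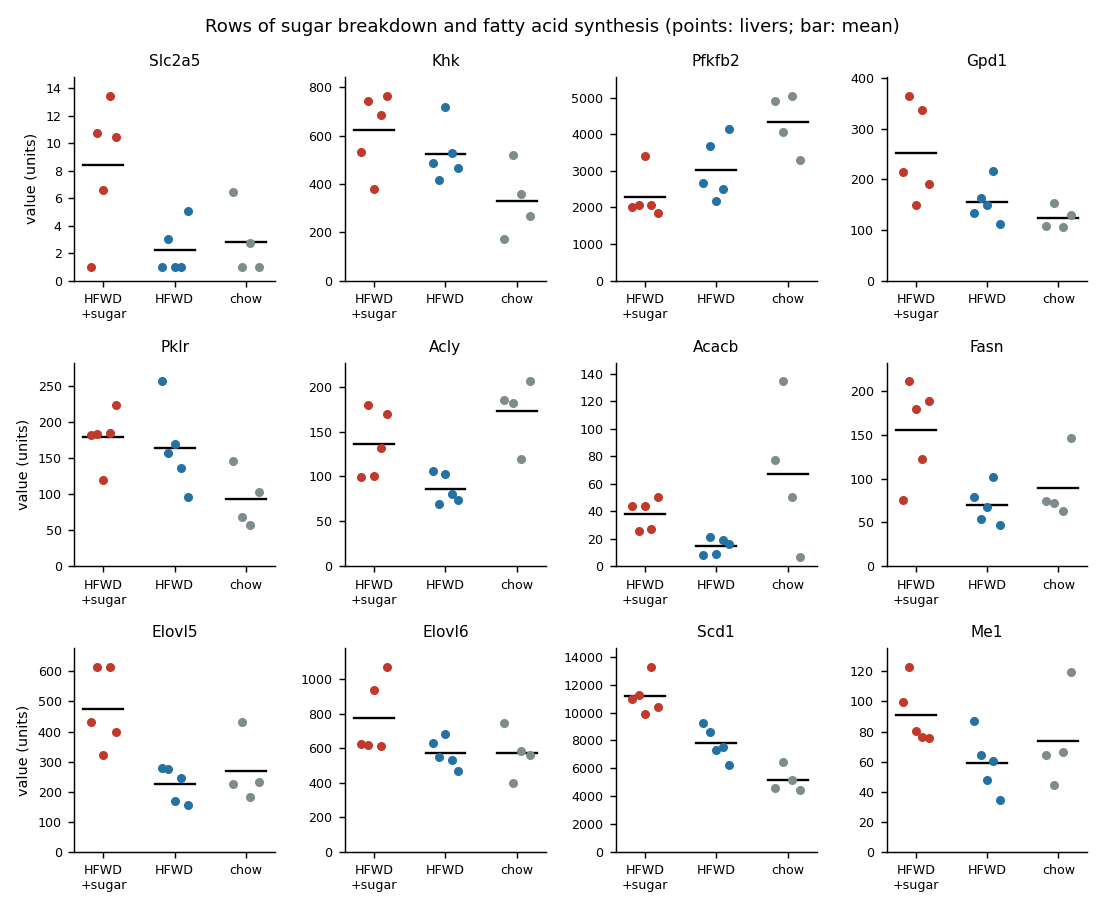
Value in units of 12 rows of sugar breakdown and fatty acid synthesis in each liver (points, with a bar at the group mean), HFWD+sugar left, HFWD in the middle and chow right. The groups do not overlap for Acacb, Elovl5 and Scd1, while Khk and Pklr overlap across most of their range.

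Rows of fatty acid uptake and of PPARγ, the regulator of fat storage, had the highest median of the lists with at least 5 tested rows, 0.67 log2 over 14 rows, with 5 past the unadjusted threshold on the higher side and 0 on the lower. The fatty acid translocase Cd36 (mm9 chromosome 5, 17287508 to 17394777, minus strand) had 189, 154, 132, 320.4 and 168 units in the HFWD+sugar livers, against 122, 148, 72.8, 119.9 and 86.0 units in the HFWD livers. HFWD+sugar 4 stood far above the rest, and the difference was 0.78 ± 0.26 log2 (adjusted p = 0.53) with it and 0.58 without it. Pparg itself averaged 16.3 ± 5.39 units in HFWD+sugar and 8.12 ± 3.25 units in HFWD livers, and Mogat1, a monoacylglycerol acyltransferase, 23.8 ± 11.6 and 10.3 ± 5.93 units. Both are low rows, and over the whole table rows under 20 units had a median log2 difference of 0.21. No row of the list was past the unadjusted threshold in the share-adjusted fit, and its median was 0.21. The Cd36 difference was 0.43 there, and that of the fatty acid transporter Slc27a2, past the unadjusted threshold at 0.26 ± 0.12, was -0.03.

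The higher opposite-strand rows beside these 2 lipid genes, picked after their values were seen, showed the same sign. Gnat3 beside Cd36 had 10410, 10510, 11140, 12970 and 9374 units in the HFWD+sugar livers, against 7536, 10560, 7206, 8971 and 8005 units in the HFWD livers (HFWD 2 alone of the HFWD livers lay inside the HFWD+sugar range), and 2740.2 units on average in chow livers (log2 difference 0.37 ± 0.19, adjusted p = 0.60). BC035947, whose coordinates overlap those of Mogat1 on the other strand (mm9 chromosome 1, 78494381 to 78508538, minus strand), had 528, 393, 427, 647 and 390.2 units in the HFWD+sugar livers, against 182, 309, 233, 259 and 240.4 units in the HFWD livers. All 5 HFWD+sugar livers were above all 5 HFWD livers in that row, and chow livers had 19.2, 36.8, 26.0 and 108 units (log2 difference 0.95 ± 0.33, 95% interval 0.26 to 1.64, adjusted p = 0.53). The 12 higher opposite rows of the whole list had a median of -0.01, with 1 past the unadjusted threshold on the higher side and 0 on the lower.

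Of 17 rows of lipid droplet coats, fusion and lipolysis, 4 were past the unadjusted threshold on the higher side and 1 on the lower, with a median of 0.29. Cidea, which fuses droplets and is known from brown fat and fatty liver, had 68.9, 77.6, 38.3, 74.7 and 38.5 units in the HFWD+sugar livers, against 12.2, 20.6, 63.1, 23.9 and 15.6 units in the HFWD livers, with HFWD 3 alone among the HFWD livers inside the HFWD+sugar range, and 1.41 units on average in chow livers (log2 difference 1.28 ± 0.42, adjusted p = 0.53). Hsd17b13, a droplet enzyme of hepatocytes, averaged 222 ± 57.8 units in HFWD+sugar and 131 ± 49.0 units in HFWD livers. The coat protein Plin2 averaged 654 ± 203 units in HFWD+sugar and 446 ± 143 units in HFWD livers, with an interval of -0.17 to 1.26, and the droplet protein Cidec 2109.8 ± 222 and 2469 ± 345 units. The monoglyceride lipase Mgll was the member on the lower side, at 1064 ± 202 units in HFWD+sugar and 1348 ± 171 units in HFWD livers. The share-adjusted fit left 1 row of the list past the unadjusted threshold on the higher side and 0 on the lower, the median was -0.03, and the Plin2 difference turned to -0.12.

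Among 36 rows of fatty acid oxidation and PPARα targets, 5 were past the unadjusted threshold on the higher side and 1 on the lower, with a median of 0.38. Acaa1b, a peroxisomal thiolase (mm9 chromosome 9, 119057141 to 119066211, minus strand) with a close copy in Acaa1a between which reads may be split, had 729, 846, 598, 913 and 691 units in the HFWD+sugar livers, against 529.5, 509, 487, 523 and 284 units in the HFWD livers. The groups did not overlap, and HFWD 5 stood apart on the low side (log2 difference 0.71 ± 0.17, 95% interval 0.36 to 1.07, adjusted p = 0.46). The mitochondrial dehydrogenase Acadm averaged 333 ± 79.0 units in HFWD+sugar and 227 ± 68.6 units in HFWD livers, and Cpt1a, which admits fatty acids to mitochondria, 470.1 ± 123 and 360.1 ± 97.9 units. In both rows HFWD+sugar 4 was the highest liver. Cyp4a14, a PPARα target of wide range between livers, averaged 242 ± 153 units in HFWD+sugar and 142 ± 143 units in HFWD livers. The member on the lower side was Creb3l3, a liver transcription factor of lipid metabolism, at 2252 ± 181 units in HFWD+sugar and 2519 ± 69.0 units in HFWD livers. In the share-adjusted fit 1 row was on each side, the median was -0.06, and the Cpt1a difference turned to -0.08.

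Cholesterol synthesis showed no common sign. Of 27 rows, 3 were past the unadjusted threshold on the higher side and 1 on the lower, and the median was 0.06. Pmvk, which phosphorylates mevalonate phosphate, averaged 11.3 ± 3.20 units in HFWD+sugar and 3.14 ± 2.89 units in HFWD livers, against 33.3 units in chow livers. Insig1, a retention factor of SREBPs, averaged 326 ± 81.3 units in HFWD+sugar and 419 ± 59.1 units in HFWD livers. Of 25 bile acid rows, 5 were past the unadjusted threshold on the higher side and 0 on the lower. Abcc3, an export pump of the hepatocyte's blood side, had 4432, 4384, 4389, 4330 and 4230 units in the HFWD+sugar livers, against 3744, 4026, 4080, 3913 and 3831 units in the HFWD livers, with no overlap at a difference of only 0.15 ± 0.07 log2. Cyp7a1, the rate-limiting enzyme of bile acid synthesis, averaged 193 ± 96.4 units in HFWD+sugar and 129.5 ± 75.1 units in HFWD livers, with an interval of -0.57 to 1.80. With the share adjusted for, 1 cholesterol row and 2 bile acid rows were past the unadjusted threshold on the higher side and 0 of either list on the lower, with medians of 0.07 and -0.01.

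Genes of glucose output were near level. Of 20 rows of gluconeogenesis and insulin response, 2 were past the unadjusted threshold on the higher side, Fbp1 and Igfbp1, and 0 on the lower, with a median of 0.11. Pck1, the entry enzyme of gluconeogenesis, averaged 1007 ± 181 units in HFWD+sugar and 865 ± 125 units in HFWD livers (interval -0.06 to 0.49), and glucose-6-phosphatase (G6pc) 288 ± 40.2 and 308 ± 108 units (interval -0.55 to 0.52). Of 28 urea cycle and amino acid breakdown rows, 3 were on the higher and 1 on the lower side, with a median of 0.04. Bhmt, which methylates homocysteine, averaged 779 ± 111 units in HFWD+sugar and 578 ± 120.4 units in HFWD livers. In the share-adjusted fit 0 rows of either list were past the unadjusted threshold, with medians of -0.07 for gluconeogenesis and insulin response and -0.06 for amino acids, and the Fbp1 difference was -0.02, against 0.40 ± 0.18 without the covariate.

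Detoxification rows had positive medians, which the share-adjusted fit brought to 0.06 for the NRF2 list and -0.04 for the P450 list. In that fit 1 NRF2 row was past the unadjusted threshold on each side, and 0 P450 rows on the higher and 1 on the lower. Of 27 NRF2 targets and antioxidant enzymes, 5 were past the unadjusted threshold on the higher side and 0 on the lower, with a median of 0.36. The catalytic subunit of glutathione synthesis, Gclc, had 1207, 3787, 2422, 1105 and 1427 units in the HFWD+sugar livers, against 724, 1306, 1247, 1130 and 639 units in the HFWD livers, with HFWD+sugar 2, 3 and 5 above every HFWD liver and the other HFWD+sugar livers among them. Of 27 cytochrome P450 and xenobiotic receptor rows, 5 were on the higher and 1 on the lower side, with a median of 0.32. Cyp3a11, a drug-metabolizing P450 from a family of close copies, averaged 1123 ± 259 units in HFWD+sugar and 714 ± 145 units in HFWD livers (log2 difference 0.65 ± 0.18, adjusted p = 0.50). Cyp2b9, likewise one of several copies, had 79.0, 64.2, 53.0, 121 and 59.7 units in the HFWD+sugar livers, against 16.7, 39.2, 6.02, 50.3 and 33.4 units in the HFWD livers, did not overlap between the groups and had a value of 1, the floor, in each of the 4 chow livers. Cyp1a1, the classic target of the aryl hydrocarbon receptor (mm9 chromosome 9, 57545420 to 57551629, plus strand), was the one on the lower side and had 9086, 5323, 6955, 7124 and 11960 units in the HFWD+sugar livers, against 12200, 13580, 12860, 11860 and 11770 units in the HFWD livers. HFWD+sugar 5 lay inside the HFWD range and the other 4 HFWD+sugar livers below it (log2 difference -0.68 ± 0.17, 95% interval -1.03 to -0.32, adjusted p = 0.46). Over all livers the Cyp1a1 row averaged 12318 units, above the Alb row at 3036.1 units. Whether this high row stands for Cyp1a1 or is the opposite-strand row of another gene was not tested.

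Endoplasmic reticulum stress rows leaned the other way from most lists. This response, set off by unfolded proteins, works through the sensors Ern1, Atf6 and Eif2ak3 and raises chaperones such as Hspa5. Of 25 tested rows, 4 were past the unadjusted threshold on the lower side and 1 on the higher, 19 were negative by sign, and the median was -0.11, the lowest of the lists with at least 5 tested rows. Over all 14770 tested rows, 6449 were negative by sign. Xbp1, the transcription factor that Ern1 splices (mm9 chromosome 11, 5420662 to 5425896, plus strand), had 2196, 1700, 1907, 1898 and 2090 units in HFWD+sugar livers 1 to 5, against 2354, 2897, 2092, 2086 and 2771 units in HFWD livers 1 to 5. HFWD+sugar 2 to 4 lay below every HFWD liver, and HFWD+sugar 1 and 5 inside the lower end of the HFWD range (log2 difference -0.31 ± 0.12, 95% interval -0.56 to -0.06, adjusted p = 0.56). Hspa5, the chaperone BiP, picked after its values were seen, had 4249, 4570, 4382, 4276 and 4609 units in the HFWD+sugar livers, against 4687, 4944, 4871, 4771 and 4992 units in the HFWD livers. The groups did not overlap, at a difference of only -0.14 ± 0.07 log2. Ddit3, Dnajb11 and Creld2 were the other members on the lower side, and Atf6, at 84.5 ± 3.44 units in HFWD+sugar and 57.6 ± 14.3 units in HFWD livers without overlap, the one on the higher side. The share-adjusted fit had 3 rows on the lower and 0 on the higher side, with a median of -0.16.

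For each of these genes the highest row on the opposite strand within 200 kb, at any ratio above 1 to the own row, was looked at after the values were seen. Of 19 tested, 8 were past the unadjusted threshold on the lower side and 1 on the higher, with a median of -0.21. Over the whole table, 4039 tested rows were the higher opposite-strand row of some gene by the same definition, with a median of -0.05, 270 (6.68%) on the lower side and 148 (3.66%) on the higher. All of the 19 but Pnpla8 and Fam192a averaged over 1000 units, where 9.48% of all rows were on the lower side and 1.26% on the higher. Distances varied: Rabepk lay 1.02 kb from Hspa5, but Kng2 106 kb from Dnajb11 and Rimbp3 75.8 kb from Sdf2l1. Rabepk, beside Hspa5 (mm9 chromosome 2, 34633076 to 34655432, minus strand), had 32720, 50030, 37320, 33520 and 47030 units in the HFWD+sugar livers, against 50480, 57280, 60190, 50660 and 84380 units in the HFWD livers. All 5 HFWD+sugar livers were below all 5 HFWD livers (log2 difference -0.59 ± 0.20, 95% interval -1.02 to -0.16, adjusted p = 0.53), and chow livers had 46940, 117000, 70610 and 66720 units. Gadd45gip1, beside the chaperone Calr, had 35930, 48250, 39560, 37520 and 44860 units in the HFWD+sugar livers, against 49130, 51910, 60060, 49810 and 55540 units in the HFWD livers, again without overlap (log2 difference -0.38 ± 0.12, adjusted p = 0.53). Calr's own row, by contrast, averaged 554 ± 134 units in HFWD+sugar and 557 ± 64.1 units in HFWD livers. Catsper2 beside Pdia3, a disulfide isomerase, averaged 6945 ± 711 units in HFWD+sugar and 8801 ± 916 units in HFWD livers, and Ccdc117 beside Xbp1 8042 ± 1796 and 12554 ± 2389 units. The count of 8 was 4 under quantile normalization, 2 in the share-adjusted fit, 12 under median centring and 5 without HFWD+sugar 4.

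**Figure D4:**
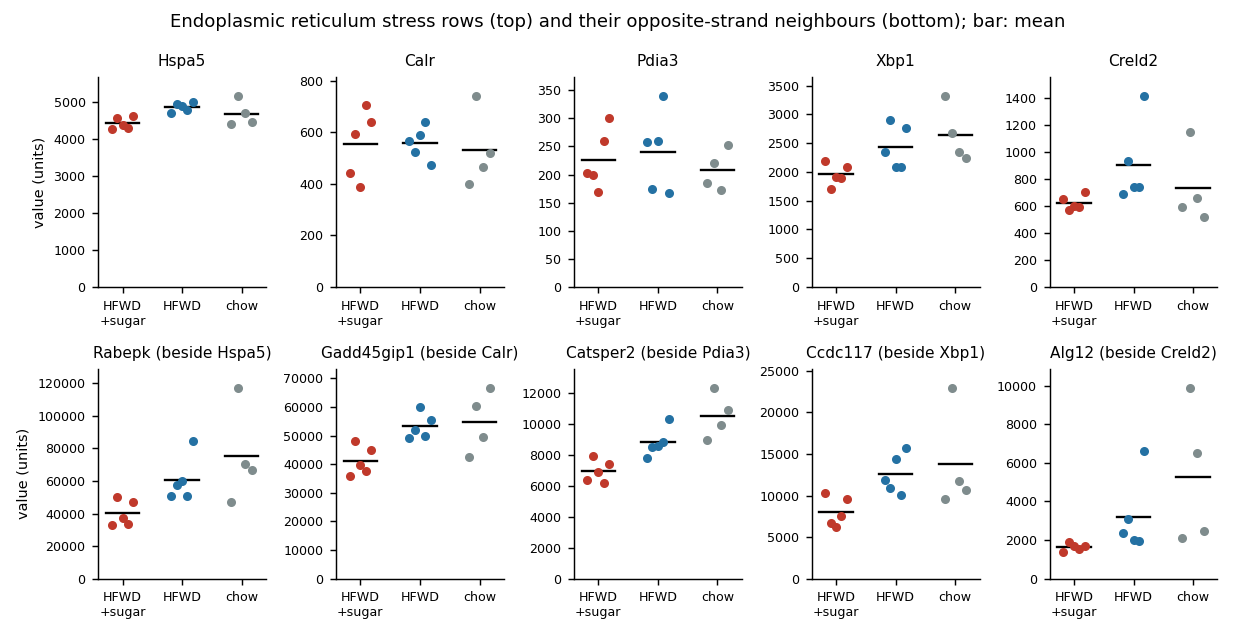
Value in units of 5 endoplasmic reticulum stress rows (top) and of the opposite-strand row beside each (bottom) in each liver, with a bar at the group mean, HFWD+sugar left, HFWD in the middle and chow right. The 5 pairs were picked after their values were seen, each with an opposite-strand row past the unadjusted threshold on the lower side. The HFWD+sugar means in the lower panels are therefore below the HFWD means by choice of pairs. Of all 19 opposite-strand rows tested for this list, 8 were past it on the lower side and 1 on the higher. For Rabepk, Gadd45gip1 and Alg12 the groups do not overlap.

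Of 24 acute-phase rows, 2 were past the unadjusted threshold on the higher side, Orm3 and Cp, and 1 on the lower, with a median of 0.14. The row on the lower side was Lcn2, an iron-siderophore binder, which averaged 1035 ± 97.3 units in HFWD+sugar and 1202 ± 44.9 units in HFWD livers without overlap. In the share-adjusted fit the list had 1 row on the higher and 2 on the lower side. Of 16 cytokine and chemokine rows, 1 was past the unadjusted threshold on the higher side, Ubd, and 0 on the lower; Ccl2, which draws monocytes, was at the floor in HFWD+sugar 1 to 4. Saa1, a serum amyloid, had 3282, 2665, 3507, 3847 and 3190 units in the HFWD+sugar livers, against 1192, 3222, 4008, 2231 and 43880 units in the HFWD livers, where HFWD 5 stood more than 10 times above every other Western-diet liver, and the interval of -2.53 to 1.73 log2 spans large changes either way. Of 27 interferon-induced rows, 3 were on the higher side, and 1 in the share-adjusted fit. Of 19 circadian clock rows, 2 were on the lower side, Tef, an output regulator at 3420.2 ± 988 units in HFWD+sugar and 4922 ± 527 units in HFWD livers, and Bhlhe41, and 0 were in the share-adjusted fit. Another clock output gene, Dbp, averaged 120.2 ± 15.7 units in HFWD+sugar and 109 ± 21.0 units in HFWD livers.

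Markers of other cells were mostly low. In bulk tissue fewer cells of a type and less RNA per cell cannot be told apart. Of 15 hepatocyte markers, 3 were past the unadjusted threshold on the higher side, and their summed level ran from 22860 to 32630 units in HFWD+sugar and 20680 to 28550 units in HFWD livers. Of 15 Kupffer cell and macrophage markers, 2 were on the higher side, with sums of 2410 to 2941 units in HFWD+sugar and 2508 to 2932 units in HFWD livers. Over all 14770 tested rows, 8321 were positive by sign, and rows under 20 units had a median log2 difference of 0.21. All 11 tested lipid-associated macrophage markers were positive by sign and 2 were past the unadjusted threshold, with sums of 241.5 to 566 units in HFWD+sugar and 193 to 306 units in HFWD livers. Gpnmb, which marks such cells, was at 1 in 4 of the 5 HFWD livers and in 1 of the 5 HFWD+sugar livers, and averaged 4.74 ± 2.64 units in HFWD+sugar and 1.34 ± 0.75 units in HFWD livers. Of 21 stellate cell and fibrosis markers, 3 were on the higher side and 0 on the lower, and the collagen Col3a1 had 46.4, 37.6, 23.4, 86.3 and 64.8 units in the HFWD+sugar livers, against 16.5, 26.3, 24.0, 32.1 and 24.0 units in the HFWD livers, with HFWD+sugar 4 the highest. Col1a1 averaged 4.01 ± 2.69 units in HFWD+sugar and 1.40 ± 0.90 units in HFWD livers, near the floor, and was at 1 in every HFWD liver but HFWD 2. The filter counts livers above the floor in any group, so rows such as Gpnmb and Col1a1 can enter through the group where they are higher. Both are among the members counted on the higher side, and such members do not add support. Of 20 proliferation rows, 0 were past the unadjusted threshold. In the share-adjusted fit 0 rows of the hepatocyte, macrophage, lipid-associated macrophage and stellate lists were on the higher side, and 1 row each of the hepatocyte, macrophage and stellate lists was on the lower. The part of these markers in the other differences was not tested.

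**Figure D5:**
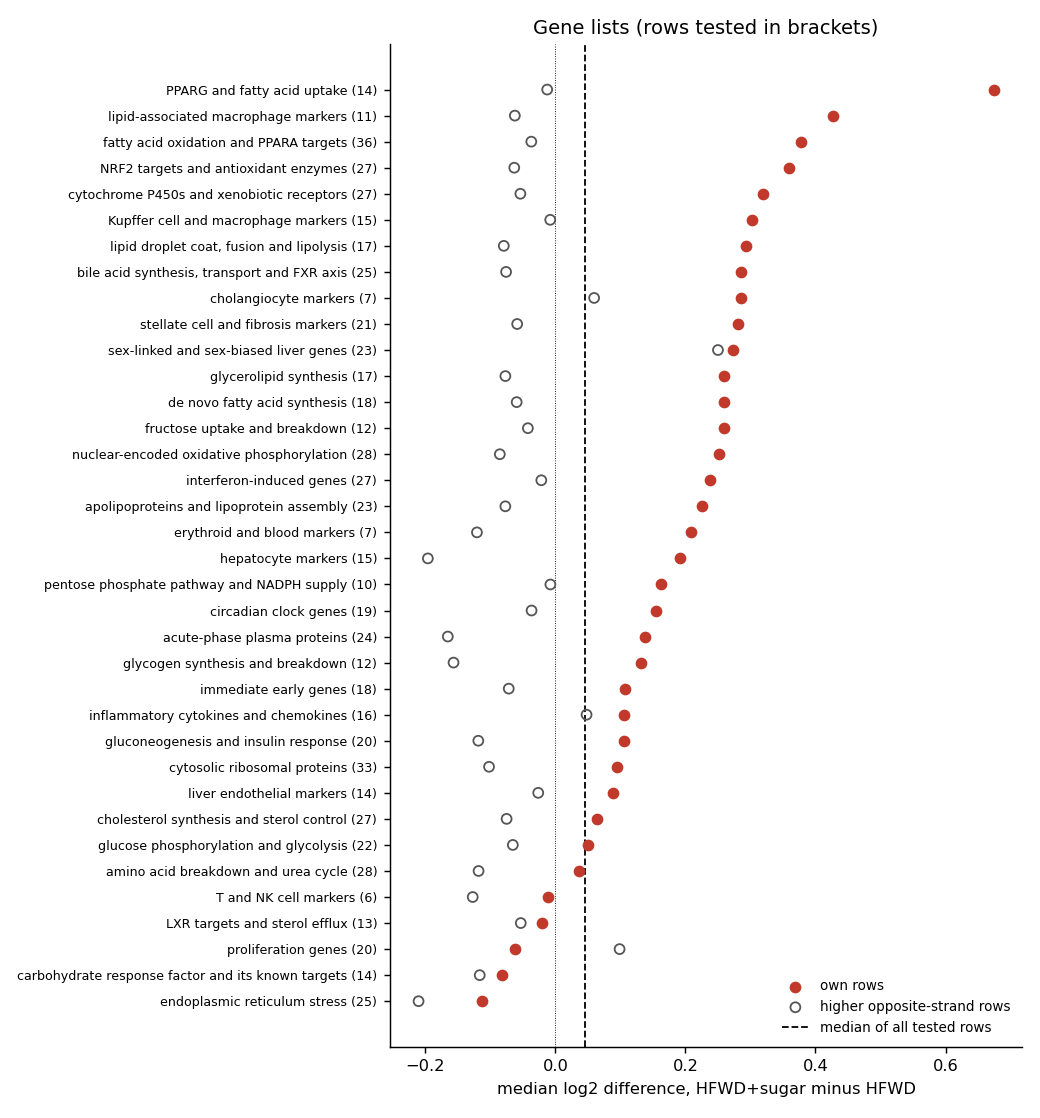
Median log2 difference (HFWD+sugar minus HFWD) of the own rows of each gene list with at least 5 tested members (filled) and of the higher opposite-strand rows beside them (open), with the median of all tested rows, 0.05, as a dashed line. Medians of own rows run from -0.11 for endoplasmic reticulum stress to 0.67 for PPARγ and fatty acid uptake, and most open points lie left of 0.

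The rows with the smallest p on each side, among rows averaging at least 20 units and leaving out predicted genes, are given as values. On the higher side were Mme, Elovl5, Scd1, Acaa1b, Irf3, Med13, Dzip3, Rai14, Ppp1ca, Ces1d, Atp7b and Zranb2, with adjusted p from 0.46 to 0.50. Mme, the peptidase neprilysin (mm9 chromosome 3, 63099794 to 63186153, plus strand), had 73.6, 78.5, 90.8, 146 and 98.1 units in the HFWD+sugar livers, against 36.4, 48.0, 48.4, 56.1 and 49.8 units in the HFWD livers. All HFWD+sugar livers were above all HFWD livers, and HFWD+sugar 4 was the highest (log2 difference 0.98 ± 0.22, 95% interval 0.52 to 1.44). Irf3, a transcription factor of the antiviral response, averaged 36.2 ± 6.35 units in HFWD+sugar and 14.5 ± 4.33 units in HFWD livers, and 31.8 units in chow livers. Rai14, an actin-binding protein, had 878, 965, 748, 801 and 693 units in the HFWD+sugar livers, against 586, 658, 617, 549 and 548 units in the HFWD livers, without overlap (log2 difference 0.46 ± 0.11). Atp7b, the copper exporter of hepatocytes, averaged 51.6 ± 9.74 units in HFWD+sugar, 26.3 ± 4.43 units in HFWD and 47.8 units in chow livers.

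On the lower side were C8a, Naif1, Arrdc2, Elf2, Uspl1, Cyp1a1, Fmn2, Lrp3, Furin, Cybasc3, D2Wsu81e and Ttc21a, with adjusted p from 0.46 to 0.50. Whether the high rows among them, such as C8a, Naif1 and Elf2, stand for their own genes was not tested. C8a, a subunit of complement component 8 (mm9 chromosome 4, 104488284 to 104549003, minus strand), had 11390, 10360, 10130, 7268 and 9104 units in the HFWD+sugar livers, against 16980, 13270, 23690, 11910 and 18660 units in the HFWD livers. All HFWD+sugar livers were below all HFWD livers, and the chow livers had 28260, 45440, 35320 and 28470 units (log2 difference -0.78 ± 0.18, 95% interval -1.15 to -0.41). Elf2, an ETS transcription factor, had 1212, 345, 2299, 977 and 1399 units in the HFWD+sugar livers, against 3376, 3151, 2452, 3927 and 3852 units in the HFWD livers, without overlap (log2 difference -1.64 ± 0.40). Arrdc2, an arrestin-domain protein, averaged 34.9 ± 5.39 units in HFWD+sugar, 61.8 ± 8.83 units in HFWD and 118 units in chow livers. Furin, the protease that cleaves proproteins in the secretory pathway, had 335, 240.1, 334, 231 and 368 units in the HFWD+sugar livers, against 622, 459.5, 459, 511 and 412 units in the HFWD livers, also without overlap (log2 difference -0.72 ± 0.19).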

How the data were processed

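RNA was sequenced in 14 liver libraries from mice on 3 diets. Per the labels, 500 ng of total RNA was depleted of ribosomal RNA, and libraries passed 12 PCR cycles before paired 100 bp sequencing. The submitters' processing notes name FastQC, TopHat2 2.0, SAMtools and mm9. Not given in the sources used here: read counter, strand setting, treatment of multiply matching reads and scaling. The authors deposited a single table of normalized signal per gene, with 22850 rows and a floor of 1, which 36.7% to 47.1% of rows took in a library.

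Groups follow the treatment label, and numbers follow accession order and pair nothing. Values were taken as log2(value + 1), which understates differences of low rows. One limma model (3.58.1, R 4.3.3, data.table package at 1.17.8) with 3 group means and a variance trend was fitted to the 14770 rows above the floor in at least 4 livers, with all 14 libraries sharing the spread. It was 2-sided, Benjamini-Hochberg adjusted over all rows, with a threshold of 0.05 on the adjusted p. It was tested on simulated data. Means carry SD and log2 differences SE. A chi-square statistic per degree of freedom of 6.63 to 57.0 over the 26 pairs of libraries within a diet group showed no repeated library among them. Pairs across groups were not compared in this way. Depth was the table total divided by the step between low values; it covers counted reads only.

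The comparison, 40 gene lists, named rows and tests were chosen with earlier results of these data known. Named are the 12 smallest p in each direction at 20 units or more without predicted genes, each list's member with the smallest p, and 34 panel genes; others are marked as picked after their values were seen. Some of these genes are not reported here. The alternatives were other pseudocounts, filters, scalings, weights and variance trends, the 10 Western-diet livers alone, leaving out each library, and, chosen after seeing the data, the own-to-opposite share as a covariate.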

Additional observations from a re-analysis of the deposited data

Results flagged for a closer look

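Values were looked at in 264 groups of 4 or 5 livers among the named rows, and 19 held a liver whose gap to its neighbour was large against the group's whole range by Dixon's criterion, which flags about 1 group in 20 by chance. Among HFWD+sugar livers, these were HFWD+sugar 3 for Pfkfb2 at 3408 units, HFWD+sugar 5 for Rrm2 at 11.3 units and for Ccl2 at 2.60 units, and HFWD+sugar 2 for Cd3d at 48.9 units. Among HFWD livers, HFWD 5 had 283.6 units of Acaa1b, HFWD 3 had 1901 units of Fmn2 and 3996 units of Tef, HFWD 4 had 2.68 units of Gpnmb and 10.7 units of Muc1, and HFWD 2 had 6.43 units of Cd68 and 3.02 units of Col1a1. Among chow livers, chow 2 had 39800 units of Saa1, 24570 units of Saa2, 6.63 units of Orm3, 2.65 units of Fgf21 and 2.65 units of Cidea. Chow 4 had 1243 units of Acaca and 1 unit of Pnpla3, and chow 3 had 2.88 units of Muc1. Rows under about 10 units rest on a few reads.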

How the results depend on the processing

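The count of 0 called rows held under every alternative fitted, with 1 exception: leaving out 1 library in turn gave 0 to 1 rows, the 1 being Ap4b1, higher in HFWD+sugar livers (limma, adjusted p = 0.0377), without HFWD 1. The count at an unadjusted p under 0.05 was less settled. Against 804 higher and 469 lower rows, it was 387 and 1500 with median centring, 526 and 484 with quantile normalization, 479 and 448 for rows averaging at least 20 units, 867 and 305 without a variance trend, 995 and 747 with the 10 Western-diet livers alone, 1079 and 723 with array weights, and 243 and 298 with the own-to-opposite share as a covariate, an alternative chosen after seeing the data. Leaving out 1 library gave 465 rows without HFWD+sugar 4 to 1058 rows without HFWD+sugar 3 on the higher side, and on the lower side 288 without HFWD+sugar 4 and 307 without HFWD 5 to 628 without chow 4. Signs turned for some named rows, of which Slc27a2 and Fbp1 had been past the unadjusted threshold. With median centring these were Mlxipl at -0.087 and Acaca at -0.11, and with quantile normalization Mlxipl at -0.12, Per1 at -0.042, Cgref1 at 0.069, Npb at 0.068 and Fbxo9 at 0.043. With the covariate they were Khk at -0.060, Pklr at -0.081, Mlxipl at -0.12, Plin2 at -0.12, Cpt1a at -0.080, Slc27a2 at -0.027, Fbp1 at -0.022, Cgref1 at 0.13, Npb at 0.084 and Fbxo9 at 0.032. Leaving out 1 library gave log2 differences of -0.020 to 0.074 for Acaca, -0.085 to 0.011 for Cgref1, -0.092 to 0.017 for Fbxo9, -0.31 to 0.17 for Fgf21, -0.25 to 0.096 for G6pc, -0.066 to 0.16 for Mlxipl, -0.13 to 0.56 for Per1 and -0.86 to 0.44 for Saa1. The cause was not tested. No paired analysis was possible because the labels give no replicate numbers that the groups share. Of the rows under 20 units, 12.5% had an interval inside 2-fold, and the part of depth in this was not tested.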

Other observations

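Gene groups not described above gave counts of the same kind, with 0 rows called. Over all rows, 5.44% were past the unadjusted threshold on the higher side and 3.18% on the lower. Of 23 apolipoprotein and lipoprotein assembly rows, 4 were past the unadjusted threshold of 0.05 on the higher side in HFWD+sugar livers and 0 on the lower, with a median log2 difference of 0.23. Apob, the scaffold of very-low-density lipoprotein, averaged 8218 ± 1803 units in HFWD+sugar and 6388 ± 1052 units in HFWD livers (SD, n = 5 each). Of 17 glycerolipid synthesis rows, 2 were on the higher side and 0 on the lower, with a median of 0.26. Of 28 nuclear-encoded oxidative phosphorylation rows, 3 were on the higher side and 0 on the lower, with a median of 0.25. Of 33 cytosolic ribosomal protein rows, 4 were on the higher and 1 on the lower side, with a median of 0.09, and of 13 LXR and sterol efflux rows 2 were on the higher and 1 on the lower side, with a median of -0.02. With the own-to-opposite share as a covariate, 0 rows of the lipoprotein, glycerolipid, oxidative phosphorylation and ribosomal lists and 1 row of the LXR list were on the higher side.

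Rows of other cell types were few. Of 14 liver endothelial markers, 2 were on the higher and 1 on the lower side, and of 7 cholangiocyte markers 1 was on the higher side. Only 6 of 14 T and NK cell markers, 2 of 8 B and plasma cell markers and 2 of 10 neutrophil markers were tested, and 0 of them were past the unadjusted threshold.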
